A study of Homo sapiens with 6 samples.

Results

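The UBE2 genes encode the ubiquitin-conjugating (E2) enzymes, and their RNA was read on 6 one-colour expression arrays of MDA-MB-231 cells, a line derived from a triple-negative human breast cancer. The genes were chosen by symbol, as every array probe whose accession mapped to a RefSeq symbol beginning with UBE2, with 5 pseudogenes and their 8 probes left out. This gave 34 genes on 44 probes, out of 21743 genes with a matched probe and 50599 probes in all. After a filter on dim probes, 28 of the 34 genes, on 37 probes, were tested among 11974 genes on 18464 probes. Each group was 2 arrays of cells collected 72 h after transfection with the hsa-miR-205-5p precursor, with the hsa-miR-214-3p precursor, or with the scrambled negative control precursor (SCR). All groups shared the same cell line, medium and reverse transfection, and no other agent or genetic change was given in the labels. The labels number the arrays of a group as replicates without saying that they came from separate cultures, so p-values measure only the spread between these samples. In bulk RNA, fewer expressing cells and less RNA per cell cannot be told apart.

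Ubiquitin is passed from an activating enzyme (E1) to the cysteine of an E2, and from there, with the help of a ligase (E3), to a lysine of the substrate. The E2 often sets which kind of chain is built, and with it whether the substrate goes to the proteasome, changes partners or takes part in signalling. A few UBE2 genes serve other modifiers, such as NEDD8 and ISG15, and a few encode proteins without the catalytic cysteine that work as partners of an active E2. In dividing tumour cells the best known members are UBE2C and UBE2S, which build the chains of the anaphase-promoting complex at the end of mitosis. A microRNA binds messages through its seed, and messages that pair with it are commonly repressed or degraded.

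The 2 mature microRNAs supplied by the precursors are printed with the seed, bases 2 to 8, in capitals, because they are what the precursor groups received. Both came from chromosome 1 of the RefSeq assembly GRCh38.p14, hsa-miR-205-5p from chr1:209432166-209432187 on the plus strand and hsa-miR-214-3p from chr1:172138816-172138837 on the minus strand. Both are 22 bases long, and their seeds are not the same.
hsa-miR-205-5p: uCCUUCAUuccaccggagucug
hsa-miR-214-3p: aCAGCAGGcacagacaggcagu
UBE2J1 is the member that the study also followed by qRT-PCR. Its designed primers are shown to identify the transcript, and no base in them is marked.
UBE2J1 forward primer: gccagtacatcgtacggactc
UBE2J1 reverse primer: tcgagggctcatggaggtat

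Levels below are normalized log2 signals, the log2 processed signal of a probe minus the 75th percentile of its array, so that 1 unit is a 2-fold difference and 0 is the 75th percentile. A gene was read from its brightest tested probe and is called higher or lower where the Benjamini-Hochberg adjusted p from limma, over all tested probes, was under 0.05 and the difference was at least 2-fold. Where a count at an unadjusted p under 0.05 has no share of all genes beside it, no excess over other genes is shown. Between 35.4% and 42.2% of the 58717 non-control spots of an array were well above background, and no spot was saturated. That share was 35.4% to 37.8% with miR-205-5p, 38.5% to 39.5% with miR-214-3p and 40.7% to 42.2% in SCR, and its part in the differences below was not tested. All 7 mesenchymal genes expected in this line, among them VIM and CD44, were well above background on all 6 arrays. Of 7 epithelial and hormone receptor genes, ESR1, PGR and FOXA1 were above background on no array and CDH1, ERBB2, EPCAM and GATA3 on all 6, while the summed linear level of the list, in units of the 75th percentile, was 40.7 to 42.3 with miR-205-5p, 17.0 to 18.2 with miR-214-3p and 21.8 to 22.7 in SCR. The sum of 3 leukocyte genes was 4.76 to 5.86, 10.3 to 10.5 and 7.85 to 11.2 in the same order, with CD68 above background on all 6 arrays and CD3E on none. The sum of 5 fibroblast and endothelial genes stayed between 0.864 and 1.28. What part these shifts have in the UBE2 differences was not tested. Over the UBE2 probes the root mean square difference between the arrays of a group was 0.27 on the log2 scale with miR-205-5p, 0.16 with miR-214-3p and 0.58 in SCR, so the SCR pair was the most scattered.

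With the miR-205-5p precursor, 4 of the 28 UBE2 genes were lower than in SCR (14.3%, beside 7.98% of all genes tested) and 3 were higher (10.7%, beside 4.78%). The lower ones were UBE2L6, UBE2G2, UBE2E3 and UBE2Z, and the higher ones were UBE2V1, UBE2D1 and UBE2O. The median log2 fold change of the 28 genes was -0.08, with 16 below 0, and that of all genes was 0.08. The largest differences ran in both directions, from -2.77 for UBE2L6 to 2.25 for UBE2V1. Without miR-205-5p replicate 2 the counts were 0 lower and 0 higher, with 5 lower and 4 higher at an unadjusted limma p under 0.05. The lower count was 1 without either miR-214-3p array, which changes the shared estimate of spread, and 3 to 5 without any of the other 3, while the higher count was 3 without any array other than miR-205-5p replicate 2.

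With the miR-214-3p precursor, 3 UBE2 genes were lower than in SCR (10.7%, beside 2.03% of all genes tested) and 1 was higher (3.57%, beside 1.09%). The lower ones were UBE2J1, UBE2H and UBE2S, and the higher one was UBE2V1. The median log2 fold change of the 28 genes was 0.05, with 13 below 0, beside -0.01 for all genes. These calls rest on every array but one: without SCR replicate 2 there were 4 lower and 2 higher, and without any one of the other 5 arrays limma called 0 in either direction, with 5 to 9 lower and 1 to 7 higher at an unadjusted p under 0.05. The 4 genes lay far apart between the groups all the same, by 1.56 to 2.40 on the log2 scale. In a fit of only the 4 arrays compared, no UBE2 gene was called in either direction, with 7 lower and 4 higher at an unadjusted limma p under 0.05. The share of all genes at that unadjusted limit is not given for this fit. In the fit of all arrays it was already 24.2% of all genes tested, in either direction, for this comparison.

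Set directly against each other, the precursors gave 5 UBE2 genes lower with miR-205-5p than with miR-214-3p (17.9%, beside 11.3% of all genes tested) and 5 higher (17.9%, beside 9.18%). The lower ones were UBE2L6, UBE2G2, UBE2E3, UBE2C and UBE2Z, and the higher ones were UBE2H, UBE2J1, UBE2S, UBE2O and UBE2D1. The median log2 fold change was 0.09 for the 28 genes and 0.12 for all genes. With normexp background correction the split was 4 lower and 2 higher. Without miR-214-3p replicate 1 the counts were 1 and 1, and without miR-214-3p replicate 2 they were 0 and 1, with 7 lower and 9 higher at an unadjusted p under 0.05. Leaving out any of the other 4 arrays gave 3 to 5 lower and 4 to 5 higher.

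Across the 3 comparisons 11 of the 28 UBE2 genes were called at least once, beside 24.9% of all genes tested, and 17 in none. Only UBE2V1 was called against SCR with both precursors, and since both comparisons used the same SCR arrays, this is not 2 independent results. UBE2L6, UBE2G2, UBE2E3 and UBE2Z were lower with miR-205-5p than in both other groups, and UBE2D1 and UBE2O were higher than in both. UBE2J1, UBE2H and UBE2S were lower with miR-214-3p than in both other groups. Pairs of arrays that do not overlap are common here. With miR-205-5p against SCR 21 of the 28 UBE2 genes did not overlap, beside 65.2% of all genes tested. With miR-214-3p against SCR 19 did not (58.5% of all genes), and between the precursors 26 did not (80.3%).

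**Figure D1:**
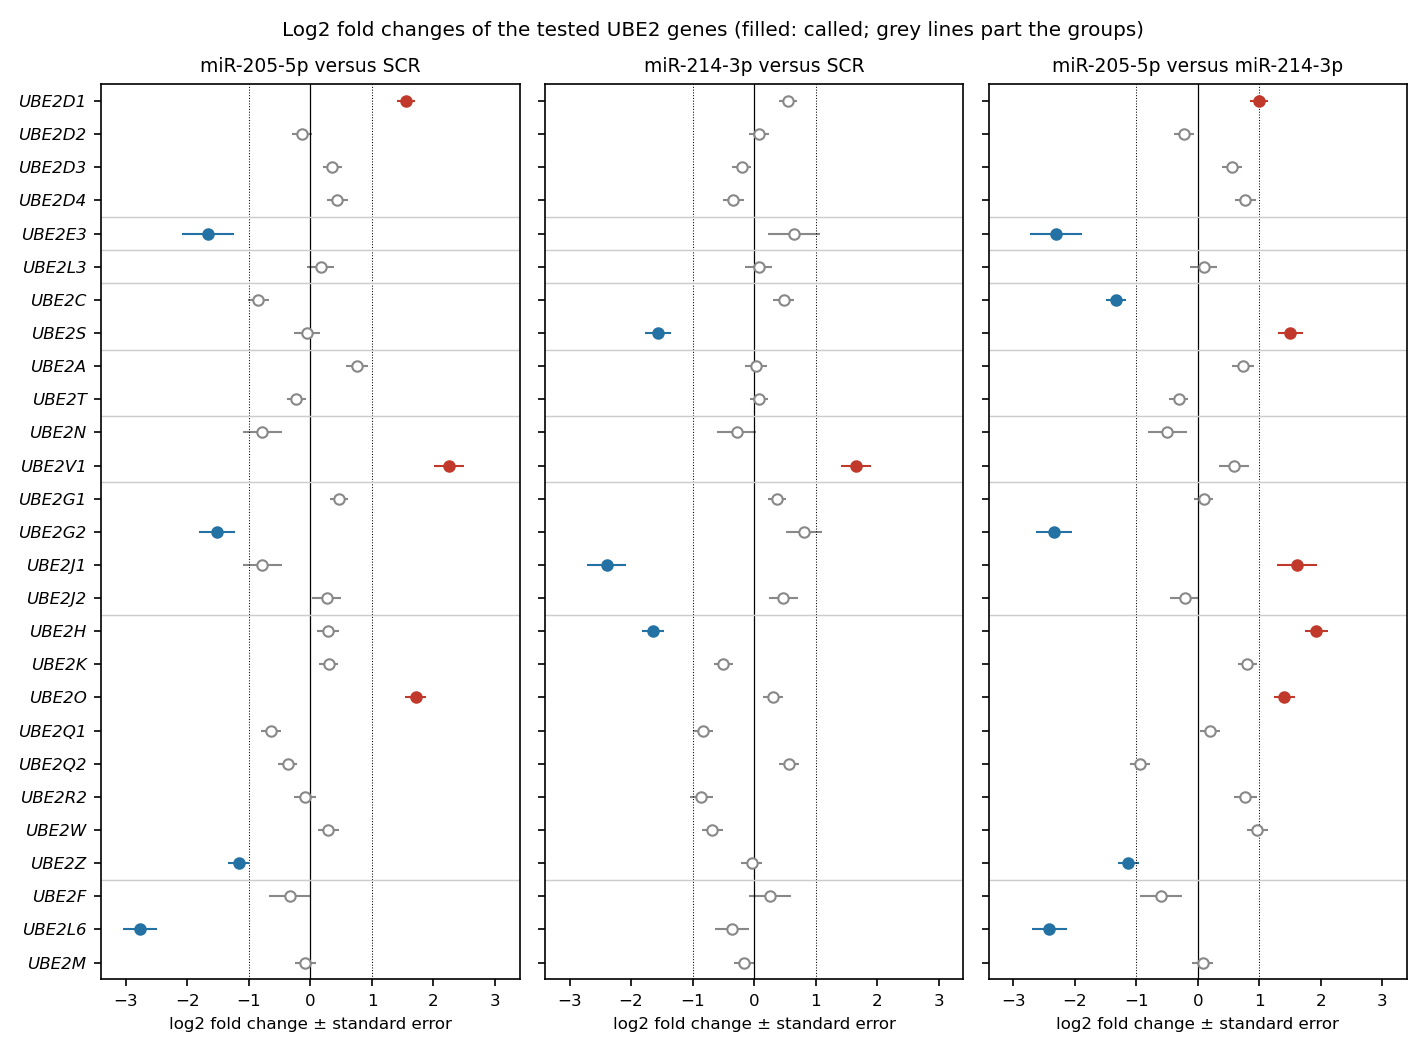
Log2 fold change (x axis, with its standard error) of 27 of the 28 tested UBE2 genes, ordered by role, in the 3 comparisons. Filled points passed the call and dotted lines mark the 2-fold limit. The calls lie on both sides of 0 in each panel, and the largest difference is that of UBE2L6 with miR-205-5p, at -2.77.

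Among the E2 enzymes of endoplasmic reticulum-associated degradation, UBE2J1 was lower with miR-214-3p and UBE2G2 was lower with miR-205-5p, while UBE2J2 and UBE2G1 passed the call in no comparison. UBE2J1 is a tail-anchored E2 of the endoplasmic reticulum membrane that works with the HRD1 ligase on misfolded proteins. Its level was 0.01 and -0.13 on the miR-214-3p arrays, 2.31 and 2.36 on the SCR arrays, and 2.03 and 1.09 on the miR-205-5p arrays. The miR-214-3p pair lay below all other arrays, and the miR-205-5p pair, which was the most spread, lay below the SCR pair. The log2 fold change with miR-214-3p against SCR was -2.40 (SE 0.32, 95% interval -3.21 to -1.59), a 5.27-fold lower level with an adjusted p of 0.0370 from limma. With miR-205-5p against SCR it was -0.78 (SE 0.32, adjusted p 0.143), which did not pass, although the gene was called lower without miR-205-5p replicate 1, at -1.25, and stood at -0.31 without miR-205-5p replicate 2. Between the precursors it was 1.62 (SE 0.32, adjusted p 0.0186), higher with miR-205-5p.

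UBE2J2 is the other tail-anchored E2 of the same membrane. Its level was 5.18 and 5.16 with miR-205-5p, 5.36 and 5.40 with miR-214-3p, and 5.22 and 4.60 in SCR. The lone low value was SCR replicate 2, and the miR-205-5p pair lay between the SCR arrays. The log2 fold change was 0.48 with miR-214-3p (95% interval -0.12 to 1.07, adjusted p 0.300) and 0.26 with miR-205-5p (-0.33 to 0.86, adjusted p 0.452), the latter turning to -0.13 with arrays scaled to the median. A second UBE2J2 probe was above background on no array and was not tested.

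UBE2G2 is a soluble E2 that the gp78 ligase recruits to the endoplasmic reticulum. Its level was 3.52 and 3.44 with miR-205-5p, 5.77 and 5.87 with miR-214-3p, and 4.59 and 5.42 in SCR. The 3 groups did not overlap, with miR-205-5p lowest and miR-214-3p highest. It was lower with miR-205-5p than in SCR by a log2 fold change of -1.53 (SE 0.29, adjusted p 0.0249) and than with miR-214-3p by -2.34 (SE 0.29, adjusted p 0.0060). Its difference between miR-214-3p and SCR, 0.82 (SE 0.29, adjusted p 0.187), did not pass, but without SCR replicate 2 it was 1.23 and was called higher, and without SCR replicate 1 it was 0.40. The call against SCR was lost without either miR-205-5p or either miR-214-3p array. UBE2G1, the soluble relative of UBE2G2, differed from SCR by 0.47 with miR-205-5p and 0.37 with miR-214-3p, and neither passed.

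**Figure D2:**
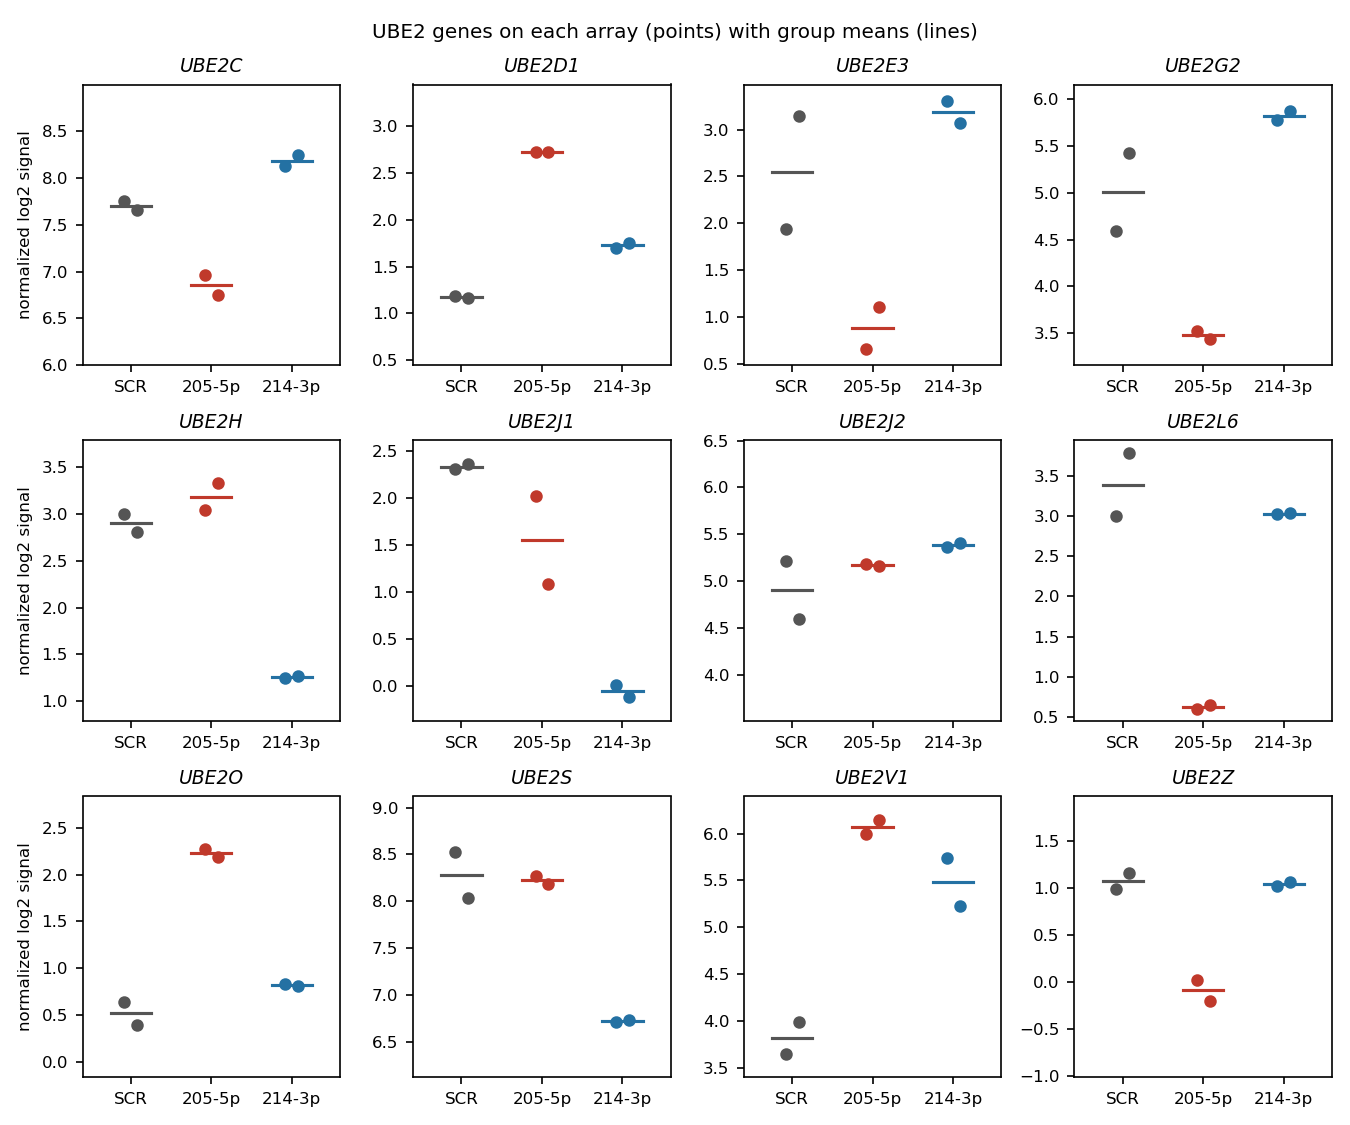
Normalized log2 signal (y axis, own range in each panel, not starting at 0) of the 11 called UBE2 genes and UBE2J2 on each of the 6 arrays, with a line at each group's mean. UBE2J1, UBE2H and UBE2S have their miR-214-3p pair below all other arrays, and UBE2L6, UBE2G2, UBE2E3 and UBE2Z have their miR-205-5p pair below all others.

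The E2 enzymes of the anaphase-promoting complex moved apart between the precursors, UBE2C being lower and UBE2S higher with miR-205-5p than with miR-214-3p. UBE2C starts the ubiquitin chains on mitotic substrates such as cyclin B. Its level was 6.97 and 6.75 with miR-205-5p, 8.12 and 8.25 with miR-214-3p, and 7.75 and 7.66 in SCR. The 3 groups did not overlap, and SCR lay in the middle. Between the precursors the log2 fold change was -1.33 (SE 0.17, adjusted p 0.0060). Against SCR it was -0.85 with miR-205-5p (SE 0.17, adjusted p 0.0262), short of 2-fold, and 0.48 with miR-214-3p (SE 0.17, adjusted p 0.176). UBE2C was called lower with miR-205-5p than in SCR under 4 of the other ways of scaling or background correction, at -1.34 with normexp, -1.24 with arrays scaled to the median, and -1.08 both with quantile normalization and in the authors' table.

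UBE2S lengthens the chains that UBE2C begins. Its level was 8.27 and 8.18 with miR-205-5p, 6.71 and 6.73 with miR-214-3p, and 8.53 and 8.04 in SCR. The miR-214-3p pair lay more than 1 log2 unit below all other arrays, and the miR-205-5p pair fell between the SCR arrays. It was lower with miR-214-3p than in SCR by a log2 fold change of -1.56 (SE 0.21, adjusted p 0.0370), and higher with miR-205-5p than with miR-214-3p by 1.51 (SE 0.21, adjusted p 0.0075). With miR-205-5p against SCR it was -0.05 (95% interval -0.58 to 0.47, adjusted p 0.867). UBE2S has processed pseudogene copies, and whether its probe also reads them could not be checked, since probe sequences were not used here.

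UBE2V1, an inactive E2-like protein that pairs with UBE2N to build the chains used in signalling and DNA repair, was the member that rose most and the one called with both precursors. Its level was 5.99 and 6.14 with miR-205-5p, 5.73 and 5.22 with miR-214-3p, and 3.65 and 3.99 in SCR. All 4 precursor arrays lay above both SCR arrays, and the precursor groups did not overlap. The log2 fold change against SCR was 2.25 with miR-205-5p (SE 0.24, adjusted p 0.0088) and 1.66 with miR-214-3p (SE 0.24, adjusted p 0.0399). Between the precursors it was 0.59 (95% interval -0.01 to 1.20, adjusted p 0.114). The second UBE2V1 probe read 5.43 and 5.24, 4.85 and 4.88, and 2.39 and 3.46 in the same order of groups, with a log2 fold change of 2.41 with miR-205-5p (adjusted p 0.0143) and 1.94 with miR-214-3p (adjusted p 0.0581). UBE2V1 also takes part in a read-through transcript with its neighbour gene, so reads of that transcript are not told apart here.

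UBE2N, the active partner, was near the detection limit: its probe, printed on 10 spots, was not well above background on either miR-205-5p array. It is the only tested UBE2 gene that was not well above background on all 6 arrays. Its level was -1.90 and -2.23 with miR-205-5p, -1.47 and -1.65 with miR-214-3p, and -1.71 and -0.86 in SCR. SCR was at least 1.26-fold above the detection bound of the miR-205-5p arrays. UBE2N passed the call in no comparison, and its adjusted p from limma against SCR, 0.139, rests on those miR-205-5p values. A lower call with miR-205-5p in the fit without SCR replicate 1 rests on them too and does not show UBE2N as lower. UBE2V2, the other inactive partner, was above background on no array.

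UBE2L6, the E2 for ISG15, an interferon-induced modifier, was the member that fell most. Its level was 0.60 and 0.64 with miR-205-5p, 3.02 and 3.04 with miR-214-3p, and 3.00 and 3.78 in SCR. The miR-205-5p arrays lay more than 2 log2 units below every other array, and the miR-214-3p pair fell within the range of SCR. It was lower with miR-205-5p than in SCR by a log2 fold change of -2.77 (SE 0.28, 95% interval -3.47 to -2.08), a 6.83-fold difference with an adjusted p of 0.0083, and than with miR-214-3p by -2.41 (SE 0.28, adjusted p 0.0052). With miR-214-3p against SCR it was -0.36 (95% interval -1.06 to 0.33, adjusted p 0.488). The call against SCR was lost without miR-205-5p replicate 2 and held without each of the other 5 arrays. UBE2M and UBE2F, the E2 enzymes for NEDD8, passed in no comparison, with log2 fold changes against SCR between -0.33 and 0.26.

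The UBE2D group, general-purpose E2 enzymes that work with many ligases, had 1 called member of 4. Of all genes tested 24.9% were called in at least 1 of the 3 comparisons, so this count is near the share of all genes. UBE2D1 read 2.73 on both miR-205-5p arrays, 1.70 and 1.75 with miR-214-3p, and 1.19 and 1.16 in SCR. The groups did not overlap, and the arrays within each differed by at most 0.05. UBE2D1 was higher with miR-205-5p than in SCR by a log2 fold change of 1.55 (SE 0.15, adjusted p 0.0080), a call lost without miR-205-5p replicate 2. Against miR-214-3p the difference was 1.00 (SE 0.15, adjusted p 0.0087), which sits on the 2-fold limit. UBE2D2, UBE2D3 and UBE2D4 differed from SCR by -0.34 to 0.44 with either precursor on their brightest probes. The second UBE2D4 probe gave -0.12 with miR-205-5p, opposite in sign to the 0.44 of its brighter probe. With miR-214-3p the second probes gave -0.36 for UBE2D3 and -0.28 for UBE2D4.

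UBE2E3 is a nuclear and cytosolic E2 whose closest relatives, UBE2E1 and UBE2E2, were above background on no array. Its level was 0.66 and 1.10 with miR-205-5p, 3.30 and 3.07 with miR-214-3p, and 1.94 and 3.15 in SCR. The miR-205-5p pair was lowest, and the SCR arrays differed from each other by more than 1 log2 unit, with replicate 2 between the miR-214-3p values. The log2 fold change was -1.66 against SCR (SE 0.42, adjusted p 0.0487) and -2.31 against miR-214-3p (SE 0.42, adjusted p 0.0147). The difference from SCR ranged from -2.27 to -1.06 when each array was left out in turn, and its call held only without SCR replicate 1. The second probe gave -1.19 against SCR (adjusted p 0.136) and -1.89 against miR-214-3p (adjusted p 0.0349).

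Of the 8 tested members grouped as other E2 enzymes, UBE2H, UBE2O and UBE2Z were called in at least 1 comparison, beside 24.9% of all genes tested. UBE2H is the E2 of the CTLH ligase complex. Its level was 3.04 and 3.33 with miR-205-5p, 1.24 and 1.27 with miR-214-3p, and 3.00 and 2.80 in SCR. The miR-214-3p pair lay more than 1 log2 unit below all other arrays. UBE2H was lower with miR-214-3p than in SCR by a log2 fold change of -1.65 (SE 0.18, adjusted p 0.0279) and higher with miR-205-5p than with miR-214-3p by 1.93 (SE 0.18, adjusted p 0.0040), a call that held without each of the 6 arrays. With miR-205-5p against SCR it was 0.28 (adjusted p 0.301), or -0.11 with arrays scaled to the median, and 1.01 from the second UBE2H probe (adjusted p 0.0927), which did not pass. That probe gave -0.60 with miR-214-3p against SCR (adjusted p 0.354), its SCR arrays reading 0.07 and -0.87, and 1.60 between the precursors (adjusted p 0.0215).

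UBE2O is a large enzyme that combines E2 and E3 activity and clears unassembled proteins. Its level was 2.27 and 2.18 with miR-205-5p, 0.84 and 0.81 with miR-214-3p, and 0.64 and 0.40 in SCR. The miR-205-5p pair lay more than 1 log2 unit above all other arrays. UBE2O was higher with miR-205-5p than in SCR by a log2 fold change of 1.71 (SE 0.17, adjusted p 0.0080), a call lost without miR-205-5p replicate 2, and than with miR-214-3p by 1.41 (SE 0.17, adjusted p 0.0054). With miR-214-3p against SCR it was 0.30 (95% interval -0.11 to 0.72, adjusted p 0.339).

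UBE2Z is charged by the activating enzyme UBA6 rather than UBA1. Its level was 0.02 and -0.21 with miR-205-5p, 1.02 and 1.07 with miR-214-3p, and 0.99 and 1.17 in SCR. The miR-205-5p pair lay below all other arrays, and the miR-214-3p pair fell between the SCR arrays. UBE2Z was lower with miR-205-5p by a log2 fold change of -1.17 against SCR (SE 0.17, adjusted p 0.0137) and -1.13 against miR-214-3p (SE 0.17, adjusted p 0.0093). Its second probe did not show the same size of difference, at -0.43 against SCR (adjusted p 0.209) and -0.01 against miR-214-3p (adjusted p 0.976). The call against SCR was lost without miR-205-5p replicate 2 and without either miR-214-3p array.

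The members not called lay within 1 log2 unit of SCR. With miR-205-5p there were 21, from -0.85 for UBE2C to 0.76 for UBE2A, the histone and DNA damage E2. The second UBE2A probe read only 0.17 in that comparison (adjusted p 0.428). With miR-214-3p there were 24, from -0.86 for UBE2R2, which serves the SCF ligases, to 0.82 for UBE2G2. Between the precursors there were 18, from -0.94 for UBE2Q2 to 0.97 for UBE2W, an E2 that modifies protein N-termini. The second UBE2W probe read -0.11 in that comparison (adjusted p 0.794), with the opposite sign. Of the members not called, 3 with miR-205-5p (UBE2Q1, UBE2C and UBE2A) and 8 between the precursors had an adjusted p from limma under 0.05 without reaching 2-fold, beside 8.33% and 13.4% of all genes tested in the same comparisons. With miR-214-3p there were 0 such genes, and 12 of the 28, the 4 called ones included, had an unadjusted p under 0.05, beside 24.2% of all genes tested. UBE2T, the E2 of the Fanconi anaemia pathway, differed from SCR by -0.23 with miR-205-5p and 0.08 with miR-214-3p. UBE2L3, which serves RING-between-RING and HECT ligases, differed by 0.17 and 0.08, and its second probe by -0.18 and 0.27. The 6 members not tested were UBE2B, above background on SCR replicate 2 alone, and UBE2E1, UBE2E2, UBE2QL1, UBE2U and UBE2V2, above background on none.

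For 9 UBE2 genes a second probe was tested. Where on the RNA each probe binds was not checked, since probe sequences were not used. Counted by probe, 4 of the 37 UBE2 probes were lower and 4 higher with miR-205-5p against SCR (beside 8.05% and 4.14% of all probes), 3 and 1 with miR-214-3p against SCR (1.68% and 0.991%), and 6 and 6 between the precursors (11.6% and 8.37%). Both probes of a gene had the same sign in 6 of 9 genes with miR-205-5p, 9 of 9 with miR-214-3p and 7 of 9 between the precursors. Where the brighter probe was called, the dimmer one was called too for UBE2V1 with miR-205-5p and for UBE2H and UBE2E3 between the precursors. It was not for UBE2E3 and UBE2Z with miR-205-5p, for UBE2H and UBE2V1 with miR-214-3p, or for UBE2Z between the precursors. The UBE2V1 probes gave the closest pair of large differences, 2.25 and 2.41 with miR-205-5p.

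**Figure D3:**
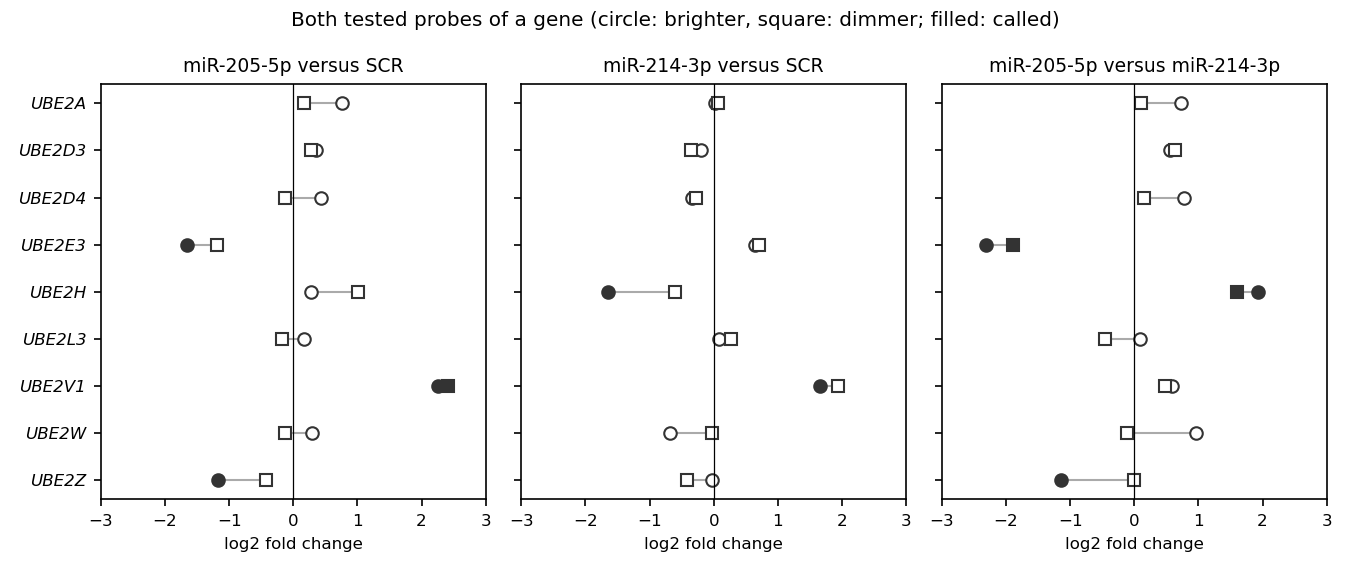
Log2 fold change (x axis) of both tested probes of the 9 UBE2 genes that had a second one, in the 3 comparisons. Circles are the brighter and squares the dimmer probe, filled where called. The UBE2V1 probes lie together at 2.25 and 2.41 with miR-205-5p, whereas the UBE2Z probes lie apart at -1.13 and -0.01 between the precursors.

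The genes that work with these enzymes were counted from lists of 124 activating enzymes, modifiers, ligase subunits and degradation factors, of which 109 were tested. With miR-205-5p against SCR, 13 of them were called lower (11.9%, beside 7.98% of all genes tested) and 2 were higher (1.83%, beside 4.78%), with a median log2 fold change of 0.05. Of the 9 activating enzymes, UBA1, which charges most E2 enzymes with ubiquitin, and UBA7, which charges UBE2L6 with ISG15, were lower. UBA1 read 3.25 and 3.11 with miR-205-5p, 4.63 and 4.62 with miR-214-3p, and 4.23 and 4.27 in SCR, a log2 fold change of -1.07 against SCR (adjusted p 0.0133). UBA7 read 1.11 and 0.88, 1.90 and 2.28, and 2.18 and 1.93 in the same order, also -1.07 (adjusted p 0.0270). For both, the miR-205-5p pair lay below all other arrays. UBA7 was the only one of 7 genes of ISG15 conjugation that was called, and UBB, which encodes polyubiquitin, was the only one of 11 modifier genes, at -1.26 (adjusted p 0.0110).

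Of 15 tested genes of the anaphase-promoting complex and its coactivators, 3 were called lower by the fit with miR-205-5p than in SCR, where 7.98% of all genes tested were. ANAPC15, a subunit of the complex, stood at -1.65 on the log2 scale (adjusted p 0.0118). ANAPC7, a scaffold subunit, was not well above background on either miR-205-5p array and was tested because of its other arrays. Its adjusted p from limma, 0.0288, rests on those miR-205-5p values. SCR was at least 1.34-fold above their detection bound, so a 2-fold difference was not shown, although ANAPC7 stays in the counts of calls. CDC20, the coactivator of early mitosis, was named after its value was seen, at -1.47 (adjusted p 0.0090). Of 23 genes of endoplasmic reticulum-associated degradation 5 were called lower by the fit, beside the same 7.98% of all genes tested. AUP1, which recruits UBE2G2 to lipid droplets and the endoplasmic reticulum, stood at -1.78 (adjusted p 0.0105). One of the 5, the membrane ligase RNF185, was well above background on neither miR-205-5p array and on only 1 of the 2 SCR arrays, and it was tested because of its miR-214-3p arrays. SCR did not exceed the detection bound of the miR-205-5p arrays, so RNF185 was not shown to be lower and no fold is given. Without it the counts were 4 of these genes and 12 of all partner genes. Of 10 DNA damage ligases RNF8, at -1.90 (adjusted p 0.0272), and RNF40, a histone ligase that works with UBE2A, at -1.47 (adjusted p 0.0083), were lower. The higher genes were RNF14, a RING-between-RING ligase, at 1.07 (adjusted p 0.0144), and PIAS2, a SUMO ligase, at 1.16 (adjusted p 0.0430). None of 15 cullin-RING and neddylation genes was called in this comparison by limma, with 1 lower and 3 higher at an unadjusted p under 0.05. Without miR-205-5p replicate 2 no partner gene was called in either direction, with 17 lower and 9 higher at an unadjusted limma p under 0.05. The lower count was 4 without miR-205-5p replicate 1, 5 without either miR-214-3p array, 15 without SCR replicate 1 and 10 without SCR replicate 2. The higher count was 0 without either miR-214-3p array and 1 without miR-205-5p replicate 1 or SCR replicate 1.

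With miR-214-3p against SCR, 1 of the 109 partner genes was lower (0.917%, beside 2.03% of all genes tested) and 0 were higher (beside 1.09%) by limma, with 5 higher at an unadjusted p under 0.05. It was MARCHF6, a ligase of the endoplasmic reticulum membrane that works with UBE2J2 and UBE2G2. MARCHF6 read 0.74 and 0.76 with miR-214-3p, 2.06 and 1.75 in SCR, and 2.53 and 2.25 with miR-205-5p, a log2 fold change against SCR of -1.15 (adjusted p 0.0496). The miR-214-3p pair lay below all other arrays. The count was 3 lower and 3 higher without SCR replicate 2 and 0 in either direction without any one of the other arrays, where 2 to 20 were lower and 1 to 5 higher at an unadjusted limma p under 0.05.

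Between the precursors, 14 partner genes were lower with miR-205-5p than with miR-214-3p (12.8%, beside 11.3% of all genes tested) and 8 were higher (7.34%, beside 9.18%), shares close to those of all genes, with a median log2 fold change of 0.15. CDC20 was lower by -1.99 (adjusted p 0.0038), while ANAPC4 and CDC23, core subunits of the same complex, were higher by 1.48 (adjusted p 0.0059) and 1.35 (adjusted p 0.0053). SELENOS, a membrane factor of endoplasmic reticulum-associated degradation, was lower by -2.17 (adjusted p 0.0041), while MARCHF6 was higher by 1.64 (adjusted p 0.0054). RBX1, the RING subunit of cullin ligases, and CUL5, a cullin, were higher by 1.23 (adjusted p 0.0128) and 1.20 (adjusted p 0.0064). UFM1, a ubiquitin-like modifier, was higher by 1.49 (adjusted p 0.0101). Its E2, UFC1, was lower by -2.42 (adjusted p 0.0488). Without either miR-214-3p array the counts were 2 lower and 0 higher.

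**Figure D4:**
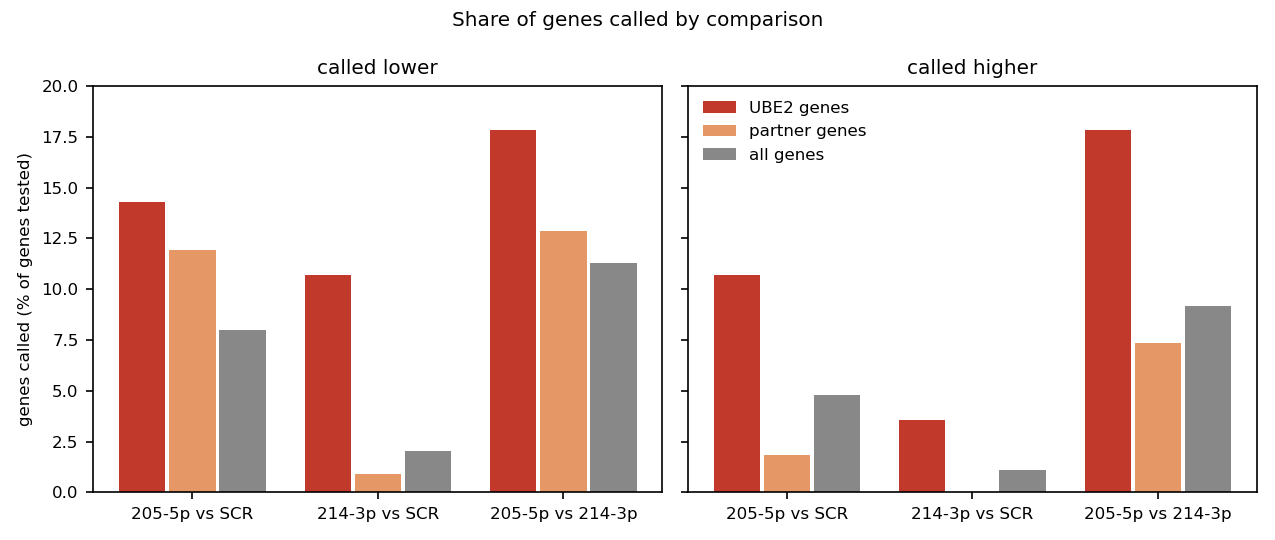
Share of tested genes called lower (left) and higher (right), in percent from 0, for the 28 UBE2 genes, their 109 partner genes and all 11974 genes in the 3 comparisons. With miR-214-3p against SCR 10.7% of the UBE2 genes were lower beside 2.03% of all genes, which is 3 genes.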

How the data were processed

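The authors hybridised Cy3-labelled RNA to Agilent arrays and deposited Feature Extraction 11.0 output, whose processed signal is a background-subtracted, detrended intensity on a linear scale. They also deposited a table of log2 values for 50739 probes, whose sorted columns were identical, as quantile normalization leaves them. These values were used only as an alternative.

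Control and outlier spots were left out (245 to 463 outliers an array) and spots of a probe averaged. Signals were scaled to each array's 75th percentile, which lay between 35.1 and 58.0. Kept probes were those that Feature Extraction marked as well above background in every array of some group. Accessions were matched to RefSeq symbols (GRCh38.p14, for names only, as the array design used another build), and 83.3% of kept probes matched. limma 3.58.1 (R 4.3.3, with version 1.17.8 of data.table) was fitted to all 6 arrays, with 3 residual degrees of freedom, and tested on simulated data. Plots used matplotlib 3.10.9. All arrays lay on 1 slide. The number of arrays limits the precision.

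Array values are given for UBE2J1, UBE2J2 and every called UBE2 gene, and of each partner list at most the 2 largest falls and rises among called genes in each comparison, with CDC20 against SCR named besides, after its value was seen. A fold against a group below background is a bound, computed from the lowest signal well above background on each array. The members, lists and tests were chosen with earlier results of these data known. The alternatives covered background correction, scaling, the authors' table, the filter, the fit, the threshold, the reading of several probes and each array left out. Some single-gene results are not reported here.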

Additional observations from a re-analysis of the deposited data

How the results depend on the processing

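With 2 arrays a group, leaving 1 out lets the lone array take its spread from the other groups. Counts of UBE2 genes then ranged from 0 to 5 lower and 0 to 3 higher with miR-205-5p against SCR, 0 to 4 and 0 to 2 with miR-214-3p against SCR, and 0 to 5 and 1 to 5 between the precursors. Counts of partner genes ranged from 0 to 15 and 0 to 2, 0 to 3 and 0 to 3, and 2 to 14 and 0 to 8. Over 15 other settings, UBE2D1, UBE2O, UBE2V1 and UBE2L6 kept their calls with miR-205-5p against SCR in 14, UBE2G2 in 11, UBE2Z in 10 and UBE2E3 in 5. With miR-214-3p against SCR, UBE2J1 and UBE2S kept theirs in 11, UBE2H in 10 and UBE2V1 in 9. Between the precursors UBE2H, UBE2S, UBE2C, UBE2G2 and UBE2L6 kept theirs in 15, UBE2O in 14, UBE2E3 in 13, UBE2Z in 12, and UBE2D1 and UBE2J1 in 11. The causes of the changes below were not tested.

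Counts are given as lower then higher where both moved, UBE2 genes first and partner genes second, and smaller changes of a count are not all listed. With miR-205-5p against SCR, no filter on dim probes gave 1 UBE2 gene lower, and 1 and 0 partner genes. The fit of only the arrays compared gave 1 UBE2 gene lower, and 5 and 0 partner genes. The methods' t-test gave 0 and 0, and 0 and 0, after Benjamini-Hochberg adjustment, and without adjustment 2 and 3 UBE2 genes and 1 partner gene higher. The mean over probes gave 2 UBE2 genes lower and 1 partner gene higher, normexp 8 and 0 partner genes, no fold limit 6 partner genes higher, the 75th percentile over probes detected on all arrays 1 higher and scaling to the median 0 higher. With miR-214-3p against SCR, no filter, the fit of only the arrays compared and the adjusted t-test gave 0 and 0 UBE2 genes and 0 partner genes lower, normexp and scaling to the median 0 UBE2 genes higher and 0 partner genes lower, and the values of the authors' table no partner gene lower (0). Between the precursors, no filter gave 3 and 3 UBE2 genes, and 8 and 5 partner genes. Normexp gave 4 and 2 UBE2 genes, and 9 and 5 partner genes, no fold limit 11 UBE2 and 18 partner genes higher, and scaling to the median and the adjusted t-test 5 partner genes higher. At an unadjusted p under 0.05, limma without the filter and with only the arrays compared had 7 UBE2 genes lower and 4 higher with miR-214-3p against SCR. No share of all genes at that limit is given for these fits.

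Deviations of arrays with the same replicate number were little correlated between groups (0.109, 0.00819 and -0.0514). This does not settle whether the samples were processed in pairs, which the labels do not say. With the replicate block, the count for miR-214-3p against SCR was 0 lower and 0 higher for UBE2 genes and 0 lower for partner genes, and 1 partner gene was higher with miR-205-5p. Scaling to the median shifted the median of all genes by -0.39, -0.17 and -0.22 in the 3 comparisons, and other scalings by under 0.1.

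Signs turned for UBE2J2 with miR-205-5p against SCR, to -0.070 with normexp, -0.13 with arrays scaled to the median and -0.045 without SCR replicate 2 (up to 0.57 with other arrays left out), and for UBE2H there, to -0.11 with arrays scaled to the median. They also turned for UBE2S with miR-205-5p, to 0.19 without SCR replicate 1 (down to -0.30 with other arrays left out), and with miR-214-3p for UBE2L6, to 0.029 without SCR replicate 2 (down to -0.75), and UBE2Z, to 0.055 (down to -0.12). None of these was called under any of those settings.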
